A study of Mus musculus with 4 samples.

Results

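The 10 keratin genes examined were Krt7, Krt8, Krt18, Krt19, Krt20 and Krt23, which are keratins of simple (single-layered) epithelia, and Krt5, Krt14, Krt15 and Krt17, which are keratins of stratified epithelia. They were taken by symbol from tables of 23235 genes, which hold 51 Krt genes in all. They were chosen as genes of epithelial identity and not by their values, though with earlier results of these data known. Expression was measured by RNA sequencing in 4 laser-captured libraries of the mouse uterus on day 4 of pseudopregnancy, after mating with a vasectomized male. Luminal epithelium, the cell layer that lines the uterine cavity, and the stroma beneath it each gave 1 library from a floxed control uterus (Msx1f/f/Msx2f/f) and 1 from a uterus labelled as a knockout (Msx1d/d/Msx2d/d). Msx1 and Msx2 are homeobox transcription factors, and the series describes their deletion as specific to the uterus. It describes 1 mouse of each genotype, so no group has a replicate, genotype has no test and cannot be told apart from animal. The compartments, which stand in separate tables, were compared by value and not tested. The driver of the deletion and the age of the mice are not given in the sources used.

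Keratins are the intermediate filament proteins of epithelial cells. A filament is built from pairs of unlike chains, each pair holding 1 acidic type I keratin and 1 basic type II keratin. Krt8 and Krt7 encode type II chains, Krt18 and Krt19 encode their usual type I partners in simple epithelia, and Krt5 and Krt14 form the corresponding pair of basal cells in stratified epithelia. The mouse uterine lining is a simple columnar epithelium. Stromal fibroblasts instead build filaments of vimentin, encoded by Vim.

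The 10 members lay in the 2 keratin clusters of the genome, 6 on chromosome 11 and 4 on chromosome 15, with coordinates in build mm9. Krt8 (chromosome 15, 101827142 to 101834773) and Krt18 (chromosome 15, 101858647 to 101862457) were 23.9 kb apart, and Krt18 is the member of the type I family that sits in the type II cluster. Krt7 lay at 101242834 to 101258237 and Krt5 at 101537501 to 101543322 of the same chromosome. Krt19 lay on chromosome 11 at 100002126 to 100007233, beside Krt15 at 99993073 to 99997263. Start regions were available from RefSeq (GRCm38.p6, another build than that of the tables) for 7 of the 10 members. Those of the abundant type II gene Krt8, its partner Krt18, the less abundant Krt7 and Krt5, listed at 0 in all libraries, are shown because these genes span the range of levels described below. Each runs 5′ to 3′ on the strand of the gene, from 100 bases before the annotated start to 10 bases after it. Capitals mark every match to ATAAA, the core of a TATA box, or to GGGCGG, a GC box, on either strand.
Krt8: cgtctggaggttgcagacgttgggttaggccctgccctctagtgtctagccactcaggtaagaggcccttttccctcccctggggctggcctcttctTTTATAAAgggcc
Krt18: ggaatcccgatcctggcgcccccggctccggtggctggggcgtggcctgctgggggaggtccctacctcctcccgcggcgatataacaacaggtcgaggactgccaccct
Krt7: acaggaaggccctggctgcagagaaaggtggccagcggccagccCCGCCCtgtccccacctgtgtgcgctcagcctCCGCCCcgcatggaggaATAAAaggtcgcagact
Krt5: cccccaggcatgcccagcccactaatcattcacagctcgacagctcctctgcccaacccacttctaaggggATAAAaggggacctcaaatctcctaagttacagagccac

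The windows are chr15:102004333-102004442 on the minus strand for Krt8, chr15:102028116-102028225 on the plus strand for Krt18, chr15:101412303-101412412 on the plus strand for Krt7 and chr15:101712896-101713005 on the minus strand for Krt5. ATAAA was found in 5 of the 7 windows and in 18.5% of all 32851 start regions of the same length. Its first base lay 28, 31 and 29 bases before the start in Krt20, Krt23 and Krt5 (positions -28, -31 and -29). In Krt7 it lay at position -7 and in Krt8 at position 1, where it overlaps a second match on the other strand. GGGCGG was found on the opposite strand of Krt7, at 2 places, and in no other member, against 25.8% of all start regions. The presence of a match thus did not separate the members that were abundant in luminal epithelium (Krt8, Krt18 and Krt7 among these 7) from those that were not. By position, ATAAA lay 28 to 31 bases before the annotated start in Krt20, Krt23 and Krt5, which were not abundant. Krt14, also not abundant, had no match. These positions rest on few genes, on the annotated starts and on exact matches, so that no link between position and level can be drawn from them. Such matches describe the sequence and are not evidence of a bound factor.

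The depth was estimated from the values at 6.33 megareads for the luminal epithelium control, 90.6 megareads for the luminal epithelium labelled knockout, 42.6 megareads for the stroma control and 61.2 megareads for the stroma labelled knockout. The first of these was 14.3 times shallower than the second, and a single read of a member stood for between 0.0792 and 0.134 RPKM there (reads per kilobase of transcript, scaled to the mapped reads of the library). In the other 3 libraries 1 read was worth between 0.00553 and 0.0199 RPKM. A value of 0 is given below only as listed at 0, because the ribosomal protein gene Rpl26, which every cell uses, was also listed at 0 in both controls. In luminal epithelium Msx1 measured 23.2 RPKM in control and 13.6 RPKM in labelled knockout tissue, and Msx2 measured 1.31 and 2.06 RPKM. The exons removed are not stated in the labels. Msx2 goes against the label, so the term labelled knockout is used, and each direction between genotypes rests on the labels.

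In luminal epithelium the keratin message was made up almost wholly of Krt8, Krt18 and Krt19. Krt8, which encodes the type II chain of simple epithelia, measured 56.9 RPKM in control and 62.7 RPKM in labelled knockout tissue. Krt18, its type I partner, measured 47.2 RPKM in control and 37.5 RPKM in labelled knockout tissue. Krt19, a type I keratin with almost no tail domain, measured 43.8 RPKM in control and 55.0 RPKM in labelled knockout tissue. These 3 genes held 96.6% of the RPKM of all 10 members in the control and 98.0% in the library labelled knockout, and 94.1% and 96.7% of the RPKM of all 51 Krt genes. Among 18733 named genes, Krt8 ranked 136 and 139 by RPKM in the 2 luminal epithelium libraries, Krt18 ranked 163 and 230, and Krt19 ranked 177 and 160. All 3 lay within a narrow band of levels in both libraries.

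Krt7, a second type II keratin of simple epithelia, measured 4.76 RPKM in control and 2.90 RPKM in labelled knockout tissue. It stood far below Krt8, which was 11.9 times higher than Krt7 in the control (counting limits 8.67 and 16.6) and 21.6 times higher in the library labelled knockout (19.5 and 24.1). Counting limits here and below are 95% exact binomial limits on estimated reads, approximate and covering counting error only. In the control the order by level was Krt8, Krt18, Krt19 and Krt7, but Krt18 and Krt19 could not be told apart, with a Krt19 to Krt18 ratio of 0.929 and limits of 0.798 and 1.08. In the library labelled knockout the order was Krt8, Krt19, Krt18 and Krt7, and Krt19 exceeded Krt18 by a ratio of 1.47 with limits of 1.41 and 1.53.

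The remaining simple keratins were at or near 0 in luminal epithelium. Krt20, a keratin of intestinal and urothelial surface cells, was listed at 0 in all 4 libraries. Krt23, a type I keratin found in several glandular epithelia, was at 0.195 RPKM in the luminal epithelium control, from about 2 reads, and listed at 0 in its deeper partner.

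**Figure D1:**
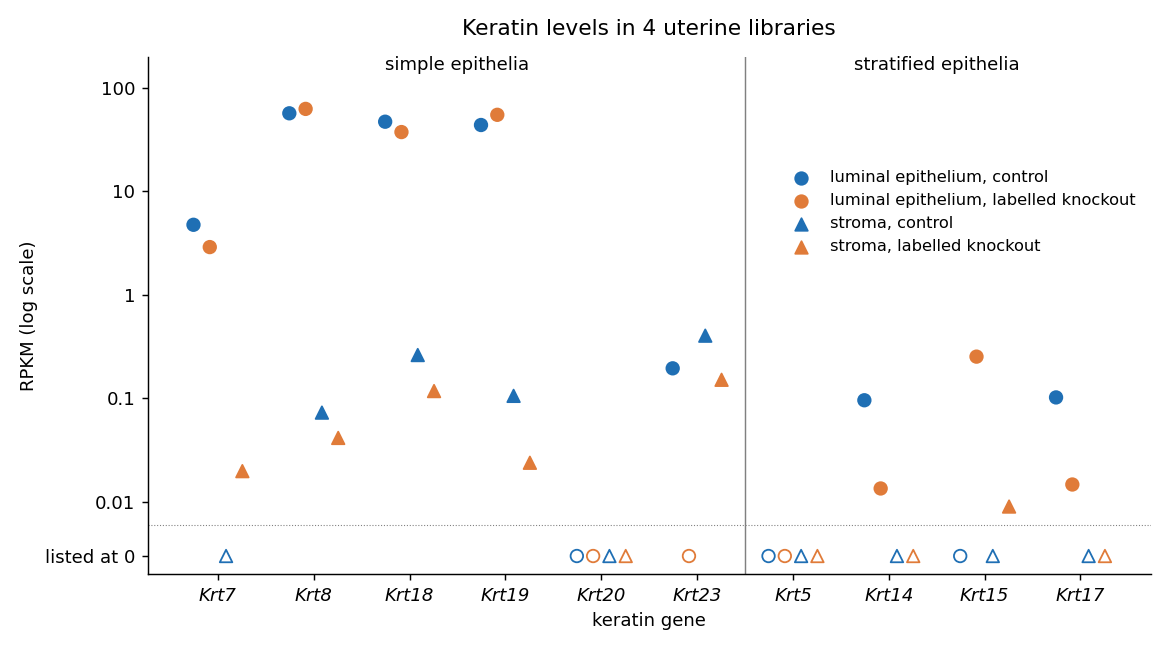
RPKM of the 10 keratin genes (log axis) in each of the 4 libraries, 1 point per library, with open symbols for values listed at 0. Krt8, Krt18 and Krt19 lie between 37.5 and 62.7 RPKM in luminal epithelium, and no member exceeds 0.404 RPKM in stroma.

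The stratified keratins were at or near 0 in the luminal epithelium libraries. Krt5, the type II keratin of basal cells, was listed at 0 in all 4 libraries. Krt14, its type I partner, was at 0.0960 RPKM in the luminal epithelium control and 0.0135 RPKM in its partner, values that stand for about 1 and 2 reads. Krt17, a type I keratin of epithelial appendages and of injured skin, was at 0.102 and 0.0147 RPKM, again about 1 and 2 reads. Krt14 and Krt17 were listed at 0 in both stroma libraries. Krt15, a type I keratin of basal cells, was the highest of the 4 at 0.253 RPKM in the luminal epithelium labelled knockout, from about 34 reads. It was listed at 0 in the luminal epithelium control, where 1 read of Krt15 was worth 0.105 RPKM, so that a level like that of its partner would have given few reads. In stroma Krt15 was listed at 0 in the control and at 0.00902 RPKM in the library labelled knockout, about 1 read.

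Of 12 markers of basal or stratified epithelium, which share Krt5 and Krt14 with the members, 8 were listed at 0 in the luminal epithelium control and 4 in the library labelled knockout. Trp63, the transcription factor that defines basal cells, was listed at 0 and at 0.0548 RPKM in these libraries. Krt10, a keratin of the suprabasal epidermis, was the highest of that list, at 1.35 and 0.529 RPKM. Krt8, Krt18, Krt19 and Krt7 thus lay above every marker of stratified epithelium on the list in both luminal epithelium libraries.

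The first comparison asked how the keratins of luminal epithelium labelled knockout differed from the control. Krt19 was higher and Krt18 and Krt7 lower in the library labelled knockout, and Krt8 was higher on the deposited scale and lower under 1 rescaling, all by less than 2-fold. The ratio of labelled knockout to control was 1.10 for Krt8 with counting limits of 1.01 and 1.20, and 1.25 for Krt19 with limits of 1.12 and 1.40. For Krt18 it was 0.794 (0.713 and 0.887) and for Krt7 it was 0.609 (0.439 and 0.854). None of these limits reached 1, but they leave out all variation between animals and between captures. The direction for Krt8 depended on the scaling: with the libraries rescaled to their sum without the 50 most abundant genes, its log2 difference went from 0.14 to -0.08, while Krt19 stayed above 0 (0.10) and Krt18 (-0.55) and Krt7 (-0.75) below 0. That rescaling moved the median log2 difference of all genes by -0.17.

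On the scale used for all genes, log2((labelled knockout + 1)/(control + 1)), 4 members reached a mean of 1 RPKM over the pair, and none of the 4 differed by 2-fold in either direction. Among the 7736 genes that reached it, 5.03% were higher and 1.99% lower in labelled knockout tissue by 2-fold or more, a split that went from 71.6% higher to 57.4% under the rescaling named above. The log2 differences were 0.14 for Krt8 (-0.08 rescaled), 0.32 for Krt19, -0.32 for Krt18 and -0.56 for Krt7, against a median of 0.10 for all genes kept. In these bulk captures fewer cells of a type and less RNA per cell cannot be told apart. The authors' deposited table listed 4 members as tested in luminal epithelium, marked none as significant, and gave each a q-value of at least 0.999999.

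Markers of other cells moved between the same libraries. Of 12 stromal markers, 11 were lower in the luminal epithelium labelled knockout than in the control, with summed levels of 6.06 and 14.4 RPKM, and the remaining one, Tcf21, was listed at 0 in both. Smooth muscle markers were lower for 6 of 7, with sums of 0.705 and 5.04 RPKM, and leukocyte markers for 6 of 7, with sums of 2.55 and 15.6 RPKM. Of 16 epithelial markers that are not keratins, such as Epcam and Cdh1, 10 were higher and 6 lower, with sums of 457 and 380 RPKM. Markers of luminal epithelium, a list that includes Msx1, summed to 282 RPKM against 182 RPKM in the control, with 6 of 9 higher and 3 lower. Of the 9, 2 were higher by 2-fold or more, against 5.03% of all genes kept. These were Irg1, at 98.6 and 36.9 RPKM, and Ltf, at 41.8 and 11.1 RPKM, which made up most of the difference in the sums. Glandular markers summed to 6.18 RPKM against 1.64 RPKM over 9 genes, most of it Aldh1a1, at 4.86 and 0.789 RPKM. The part of these shifts in the keratin differences was not tested.

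**Figure D2:**
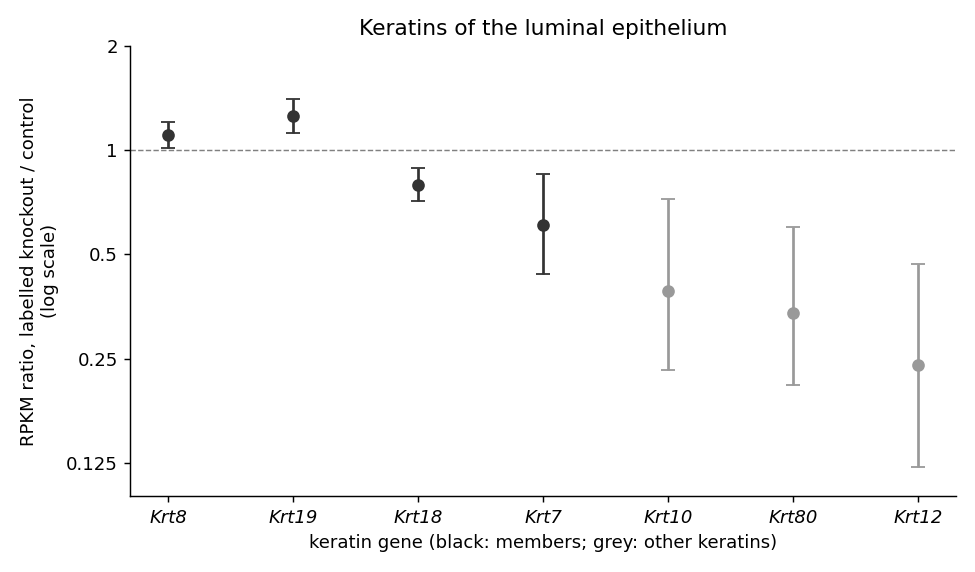
Ratio of RPKM in luminal epithelium labelled knockout to control (log axis) for the 4 members above 1 RPKM (black) and for 3 other keratins (grey), with bars for 95% counting limits on estimated reads and a dashed line at 1. Krt8 (1.10, below 1 under 1 rescaling) and Krt19 (1.25) lie above 1, and the other 5 below it, of which the 3 in grey were chosen for reaching 1 RPKM in the control alone, so that their place restates that choice.

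The proportions of the keratins to each other within a library do not depend on how libraries are scaled. Krt18 stood at 0.829 of Krt8 in the luminal epithelium control (limits 0.725 and 0.948) and at 0.597 in the library labelled knockout (0.575 and 0.620), intervals that do not overlap. Krt19 stood at 0.771 of Krt8 in the control (0.672 and 0.885) and at 0.877 in the library labelled knockout (0.848 and 0.906), intervals that overlap. The sum of the type II members was 61.6 RPKM against 91.4 RPKM for the type I members in the control, a ratio of 0.674. In the library labelled knockout these sums were 65.6 and 92.7 RPKM, a ratio of 0.708. The type II to type I balance was thus similar in the 2 libraries while the share of the type I sum carried by Krt18 was smaller in the library labelled knockout and that carried by Krt19 larger.

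**Figure D3:**
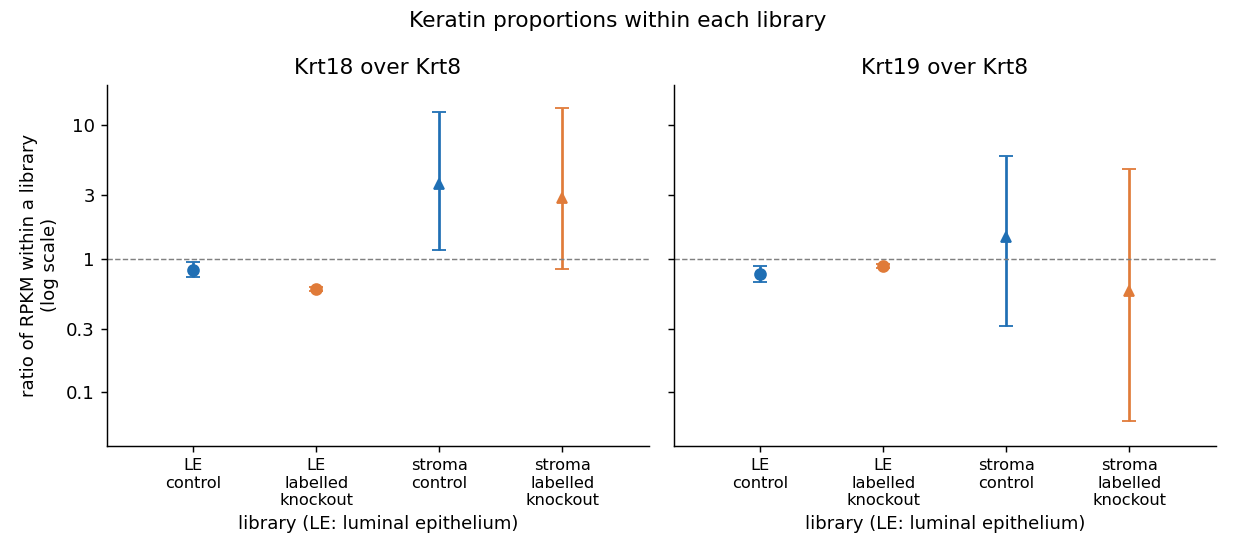
Ratio of Krt18 to Krt8 (left) and of Krt19 to Krt8 (right) by RPKM within each library (log axis), 1 point per library, with bars for 95% counting limits on estimated reads. Krt18 stands at 0.829 and 0.597 of Krt8 in luminal epithelium and at 3.60 and 2.84 times Krt8 in stroma, where few reads make the limits wide.

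Keratin message in stroma was at trace level, the subject of the second comparison. Krt8 was at 0.0729 RPKM in the stroma control and 0.0415 RPKM in its partner, from about 5 and 4 reads. Krt18 was at 0.262 and 0.118 RPKM, from about 13 and 9 reads. Krt19 was at 0.106 and 0.0239 RPKM, from about 5 and 2 reads. Krt7 was listed at 0 in the control and at 0.0198 RPKM, about 2 reads, in the library labelled knockout. The highest member in both stroma libraries was Krt23, at 0.404 RPKM in control and 0.151 RPKM in labelled knockout tissue, from about 23 and 12 reads.

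None of the 10 members reached a mean of 1 RPKM over the stroma pair. Of the 7723 genes that did, 1.45% were higher and 1.59% lower in labelled knockout tissue by 2-fold or more. Without small RNA and unnamed models these 112 and 123 genes became 33 and 37 of 7033. The ratio of labelled knockout to control was 0.569 for Krt8 with counting limits of 0.110 and 2.58, and 0.449 for Krt18 with limits of 0.182 and 1.22, both reaching 1. The Krt19 ratio, 0.226, had limits (0.0265 and 1.70) that also reach 1. That of Krt23, 0.375, had limits (0.165 and 0.760) that do not. At this depth a difference in Krt8, Krt18 or Krt19 between the stroma libraries was thus not detected, and the wide limits take in large differences. In the authors' deposited table for stroma, 1 member was tested, Krt23, with a q-value of 0.944. Epithelial markers other than keratins were lower in the same library for 14 of 16, with sums of 1.76 RPKM against 3.49 RPKM in the control. Leukocyte markers were lower there for 7 of 7, with sums of 47.5 and 108 RPKM, most of them from Cd74 (19.8 and 52.1 RPKM) and Lyz2 (21.5 and 45.1 RPKM). Stromal markers were higher for 8 of 12 and lower for 4, with sums of 579 and 405 RPKM. The difference in the stromal sums was that of the collagen genes Col3a1 (202 and 132 RPKM), Col1a2 (102 and 45.9 RPKM) and Col1a1 (83.7 and 32.9 RPKM). The part of these markers in the values of the keratins was not tested.

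Set across the compartments, Krt8 was 780 times higher in luminal epithelium than in stroma in the controls (limits 331 and 2400) and 1512 times higher in labelled knockout tissue (601 and 5653). Krt19 was 414 times higher in the controls (187 and 1368) and 2302 times higher in labelled knockout tissue (550 and 16420). Krt18 was 180 times higher (107 and 351) and 318 times higher (161 and 669). Krt7 was 146 times higher in labelled knockout tissue (33.8 and 1019) and listed at 0 in control stroma. These ratios join 2 tables that may have been normalized separately. Over all genes, 19.6% were at least 2-fold higher and 12.1% lower in luminal epithelium in the controls, and 20.7% and 10.7% in labelled knockout tissue. Scaling to the upper quartile turned that split, from 61.8% higher to 39.7% among controls and from 66.0% to 45.8% in labelled knockout tissue, and moved the median by -0.41 and -0.39. Scaling to the sum without the 50 most abundant genes gave 51.1% and 48.6%, with shifts of -0.19 and -0.34. The 4 members that entered these comparisons did so through luminal epithelium alone, so that their count adds nothing to the values given.

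Read as a share of the luminal epithelium level, stroma held 0.128% of Krt8 in the controls (limits 0.0417% and 0.302%) and 0.0662% in labelled knockout tissue (0.0177% and 0.166%). For Krt19 the shares were 0.241% (0.0731% and 0.534%) and 0.0434% (0.00609% and 0.182%). For Krt18 they were 0.556% (0.285% and 0.935%) and 0.314% (0.150% and 0.622%). The Krt18 share was the highest of these 3 in both genotypes, and its limits overlapped those of Krt19 in both and those of Krt8 narrowly in both.

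The same share was taken for 15 other epithelial markers that reached 1 RPKM in both luminal epithelium libraries. Their median was 0.728% among controls and 0.339% in labelled knockout tissue. Epcam, an adhesion protein of epithelial surfaces, stood at 0.715% and 0.350%, Cdh1, the epithelial cadherin, at 0.933% and 0.206%, and the tight junction gene Cldn3 at 0.422% and 0.0633%. The share of Krt8 exceeded that of 1 of the 15 among controls and of 3 in labelled knockout tissue, and that of Krt19 exceeded 1 in each. The share of Krt18 exceeded 6 of 15 and 7 of 15, near the middle of the list. Prom1, at 18.2% and 18.5%, stood apart from the other markers. Shares were lower in labelled knockout tissue for 12 of the 15 markers and for 3 of the 4 keratins, the exception among keratins being Krt7. Its share was 0 among controls, with an upper limit of 1.36%. In labelled knockout tissue it was 0.684% (0.0982% and 2.96%), above 12 of the 15 markers but from about 2 reads in stroma.

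Traces in the other direction were larger. Of 11 stromal markers at 1 RPKM or more in both stroma libraries, luminal epithelium held a median share of 3.74% among controls and 1.12% in labelled knockout tissue, lower for all 11. Vim, which encodes vimentin, was at 77.0 and 62.4 RPKM in stroma and at 1.39 and 0.266 RPKM in luminal epithelium, shares of 1.81% and 0.426%. Within luminal epithelium Krt8 was 40.8 times higher than Vim in the control and 236 times higher in the library labelled knockout. Within stroma Vim was 1056 and 1505 times higher than Krt8. Each library was thus dominated by the filament gene of its labelled compartment.

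**Figure D4:**
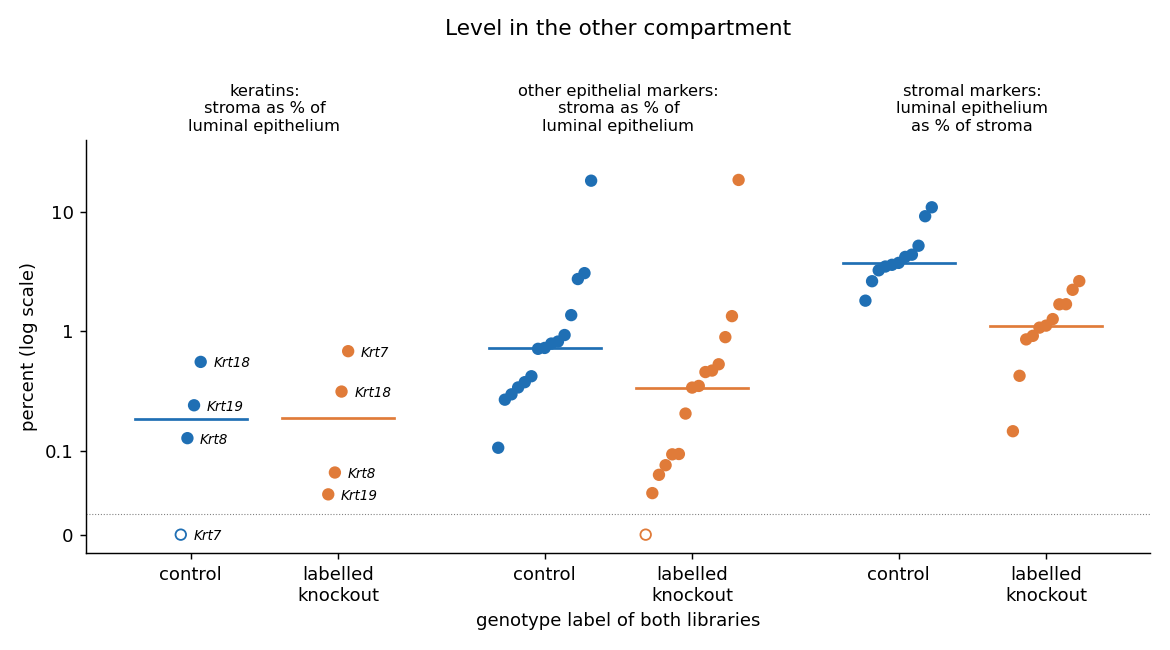
Level in the other compartment as a percent of the level in the labelled one (log axis, open symbols at 0), for 4 keratins, 15 other epithelial markers and 11 stromal markers, 1 point per gene, with lines at the medians. Krt8, Krt18 and Krt19 lie between 0.0434% and 0.556%, and the stromal markers have medians of 3.74% and 1.12%.

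Of the proportions of the traces, Krt18 to Krt8, and Krt23 to Krt18 in the controls, lay apart from those of luminal epithelium. Krt19 to Krt8 could not be told apart from them. Krt18 exceeded Krt8 in stroma, with a ratio of 3.60 in the control (limits 1.16 and 12.5) and 2.84 in the library labelled knockout (0.840 and 13.4). These limits lie above those of the luminal epithelium library of the same genotype in both cases, though they rest on 5 and 4 reads of Krt8. The ratio of Krt19 to Krt8 in stroma, 1.45 and 0.576, had limits (0.313 and 5.90, and 0.0614 and 4.74) that took in the luminal epithelium values. Krt23 stood at 1.54 times Krt18 in the stroma control (0.765 and 3.39) and 1.29 times in the library labelled knockout (0.459 and 3.19). In the luminal epithelium control it stood at 0.00414 of Krt18 (0.0006 and 0.0181).

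Markers of further keratin-bearing cells were looked at beside these traces. Of 6 mesothelial markers, 3 were listed at 0 in the stroma control and 1 in the library labelled knockout, and Msln and Upk3b reached at most 0.0149 and 0.0456 RPKM there. Upk1b was at 0.323 RPKM in the stroma control and 0.130 RPKM in its partner, above Krt18 and below Krt23 in both. The list summed to 3.71 and 4.26 RPKM in stroma, most of it Wt1, at 3.38 and 4.05 RPKM, which uterine stroma also expresses. Glandular markers summed to 0.597 and 0.244 RPKM over 9 genes, with Foxa2, which defines uterine glands, at 0.0922 RPKM and listed at 0. Spink3 made up most of the control sum, at 0.346 RPKM, above Krt18 in that library, and was listed at 0 in its partner. Endothelial markers were present in stroma, with sums of 30.6 and 27.8 RPKM over 7 genes, and smooth muscle markers with sums of 18.2 and 21.1 RPKM over 7. The part of any of these cells in the keratin reads of stroma was not tested.

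Of the 41 other Krt genes, 20 were listed at 0 in all 4 libraries, 18 stayed under 1 RPKM and 3 reached it. Those 3 were Krt10, Krt80 and Krt12, and each reached 1 RPKM in the luminal epithelium control alone, the library with the fewest reads, which is also what brought them into view. Krt10 was at 1.35 RPKM in that library, from about 16 reads, and at 0.529 RPKM in the luminal epithelium labelled knockout. Krt80, a type II keratin of differentiating epithelia, was at 1.07 RPKM there, from about 19 reads, and at 0.362 RPKM in its partner. Krt12, known from the corneal epithelium, was at 1.21 RPKM there, from about 13 reads, and at 0.289 RPKM in its partner. In stroma these genes were lower, Krt10 at 0.210 and 0.135 RPKM, Krt80 at 0.0859 and 0.0252 RPKM, and Krt12 listed at 0 in both.

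Genes whose products hold or regulate keratin filaments were taken from a list of 17. Between the luminal epithelium libraries 12 of the 17 were kept, of which 1 was at least 2-fold higher in the library labelled knockout and none lower, near the 5.03% and 1.99% of all genes, with a median log2 difference of -0.02 against 0.10 for all genes. That gene was Dst, which encodes a cytolinker of hemidesmosomes, at 3.21 RPKM against 1.02 RPKM in the control. Itgb4, the hemidesmosomal integrin chain, was at 1.08 and 2.70 RPKM, and its partner Itga6 at 14.2 and 9.19 RPKM, in labelled knockout and control. Hspb1, a small heat shock protein that binds filaments, was at 14.8 and 22.8 RPKM. In stroma 5 of the 17 were kept and none differed by 2-fold.

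Between compartments 8 of 11 kept genes of the list were higher in luminal epithelium in the controls. In labelled knockout tissue 7 of 10 were, and none was lower in either, against 19.6% and 20.7% of all genes higher. Most of them were under 1 RPKM in stroma and were kept through luminal epithelium alone, so that these counts partly restate the filter. Ppl and Dsp were among the 4 with the largest differences and are named for that. Ppl, encoding periplakin, was at 8.54 and 7.22 RPKM in control and labelled knockout luminal epithelium and at 0.0353 and 0.0285 RPKM in stroma. Dsp, encoding desmoplakin, which anchors keratin at desmosomes, was at 4.06 and 5.66 RPKM in luminal epithelium and at 0.0213 and 0.00596 RPKM in stroma. Jup, encoding plakoglobin, also of desmosomes, differed less, at 3.61 and 3.43 RPKM in luminal epithelium and 0.879 and 0.674 RPKM in stroma, and Pkp1, encoding plakophilin 1, was listed at 0 in 3 libraries. Plec, encoding plectin, which links keratin and vimentin filaments alike, was at 5.72 and 4.01 RPKM in luminal epithelium and 6.22 and 5.82 RPKM in stroma.

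Transcription and splicing factors tied to epithelial keratin expression were taken from a list of 18. None of the 8 kept between the luminal epithelium libraries differed by 2-fold, and their median log2 difference was 0.11 against 0.10 for all genes. Elf3, an ETS factor of epithelia, measured 11.4 RPKM in control and 18.9 RPKM in labelled knockout tissue. Grhl2, an activator of epithelial genes, was at 6.53 and 7.34 RPKM, and Ehf, another ETS factor, at 15.2 and 16.1 RPKM. In stroma Elf3 was at 0.0122 and 0.00840 RPKM, Grhl2 at 0.0188 and 0.00658 RPKM, and Ehf at 0.0604 and 0.0173 RPKM. Klf4, at 0.575 RPKM in the stroma control and 1.43 RPKM in the stroma labelled knockout, had the largest difference in size of the list in stroma, 0.63 on the log2 scale.

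Of 13 other intermediate filament genes, 5 were kept in each comparison of compartments. In both genotypes 3 of them, Vim, Des and Lmnb1, were lower in luminal epithelium by 2-fold or more, against 12.1% and 10.7% of all genes. Des and Lmnb1 were kept through stroma alone in both genotypes, and so was Vim in labelled knockout tissue. This count thus partly restates the filter. Des, which encodes desmin, was at 8.78 and 7.11 RPKM in stroma and 0.526 and 0.110 RPKM in luminal epithelium. Lmna, which encodes the nuclear lamins A and C, differed little between compartments, at 8.35 and 10.7 RPKM in luminal epithelium and 6.25 and 8.20 RPKM in stroma. Lmnb1, which encodes lamin B1, was at 0.430 and 0.470 RPKM in luminal epithelium and 3.33 and 3.61 RPKM in stroma. No gene of this list differed by 2-fold between genotypes in either compartment, over the 2 kept in luminal epithelium and the 6 kept in stroma.

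The genes nearest to each keratin in pattern were found among 7549 named genes by the Euclidean distance between profiles of log2(RPKM + 1) over the 4 libraries, each centred on its mean. Nearest to Krt8 were Pdzk1ip1 (53.7 and 57.1 RPKM in control and labelled knockout luminal epithelium, listed at 0 in stroma) at a distance of 0.0542, Atp1b1 at 0.160 and Mab21l3 at 0.262. Among the 3 nearest to Krt19 were Tmem158 at 0.238 and the tight junction gene Cldn7 at 0.259. Nearest to Krt18 were the adaptor gene Myd88 at 0.162, Chdh at 0.327 and Pfkfb3 at 0.362. Among the 3 nearest to Krt7 were Hspb1 at 0.0826 and Pdcd2 at 0.0903. Unlike Krt7, both were expressed in stroma, Hspb1 at 3.36 and 3.14 RPKM and Pdcd2 at 1.05 and 1.27 RPKM. Myd88 (1.77 and 1.40 RPKM) and Tmem158 (1.57 and 1.05 RPKM) also lay above every keratin member in stroma. The pseudocount of 1 RPKM understates such differences between low values, so that nearness here does not mean an equal restriction to epithelium. Krt19 took place 6 in the order around Krt8, while Krt18, the usual partner, took place 18 at a distance of 0.747. With 4 points per profile, these distances describe the libraries only.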

How the data were processed

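RNA from 4 laser-captured libraries was compared, 1 per group. The authors deposited a table for each compartment whose values are RPKM, per the file headers, together with log2 fold change, test statistic, p-value and q-value columns of their own comparison. Where 1 library is at 0 the deposited log2 fold change is a placeholder, and it was not used. Build mm9, Cufflinks 2.0.2, TopHat2 2.0.5, TopHat and CASAVA 1.8.2 are named, per the submitters' processing notes. Their roles and settings, the use of strand in counting and the treatment of reads shared between similar keratins are not given in the sources used. Columns of values of no mapped library numbered 0.

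Differences were log2((a + 1)/(b + 1)), with a pseudocount of 1 RPKM, which understates differences of low genes. A gene was kept where its pair averaged 1 RPKM or more, and a log2 difference of at least 1 in size was counted. Ratios were taken without a pseudocount. Depth was found as the step at whose multiples low RPKM, times transcript length less 200 bp, piled up, using 16383 genes with a GENCODE vM21 transcript over 800 bp. That annotation is of another build and gave lengths only, and the exons of each keratin were limited to its RefSeq span. Reads and limits are therefore approximate. Deposited starts were raised by 1, since 7152 of 20598 loci had the RefSeq gene length when counted from 0, against 452 from 1.

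All 10 members were named. Other Krt genes were named on reaching 1 RPKM, other lists by up to 4 members with the largest difference in a comparison, and likeness by the 3 nearest genes, of which 1 each for Krt7 and Krt19 is not reported here. Genes named outside these rules were chosen after their values were seen. Among them were Rpl26 as a check of zeros, Jup and Pkp1, Krt13, Krt35 and Krt85, and the markers of cell types. Members and lists were chosen with earlier results of these data known. The 2-fold calls and the depth estimate were tested on simulated data, with known lengths and a smaller gap in depth than between the luminal epithelium libraries. Counting limits, shares and likeness were not tested in this way. Scripts used matplotlib 3.10.9, scipy 1.17.1, pandas 2.3.3, numpy 2.4.6 and Python 3.11.15. The alternatives tried were pseudocount, minimum level, scaling, and leaving out small RNA and unnamed models.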

Additional observations from a re-analysis of the deposited data

Results flagged for a closer look

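The direction between genotypes was opposite in the 2 compartments for 3 members, and the difference between compartments was not tested. For Krt7, lower in luminal epithelium and higher in stroma labelled knockout, the log2 difference in luminal epithelium less that in stroma was -0.59. For Krt8, higher in luminal epithelium and lower in stroma, it was 0.18, although the direction in luminal epithelium turned under 1 of the scalings. For Krt19, also higher in luminal epithelium and lower in stroma, it was 0.43. On the stroma side the 3 genes rest on about 5 reads or fewer in each library.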

How the results depend on the processing

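Krt8, Krt18, Krt19 and Krt7, the 4 members kept between luminal epithelium libraries, did not differ by 2-fold under any of the 7 alternatives. Krt7 was not kept at a minimum of 5 RPKM. The other 6 members failed the minimum of 1 RPKM. Without a minimum they were too low to reach 2-fold with the pseudocount of 1 RPKM, so their stability was not tested. In stroma no member was kept and none could reach 2-fold with the pseudocount of 1 RPKM, and between compartments the 4 members entered through luminal epithelium alone, so that neither count bears on stability. The log2 differences between luminal epithelium libraries ran over the settings from -0.08 to 0.14 for Krt8, from 0.10 to 0.33 for Krt19, from -0.55 to -0.32 for Krt18 and from -0.75 to -0.56 for Krt7. Between compartments those of Krt8 ran from 5.71 to 8.36 in the controls and from 5.91 to 8.79 in the libraries labelled knockout, the highest with a pseudocount of 0.1 RPKM. The ratio of type II to type I sums went from 0.203 to 0.740 in the stroma labelled knockout when all Krt genes were summed in place of the members, and from 0.674 to 0.666 in the luminal epithelium control. Among members, log2 differences of at least 1 occurred only between compartments, where entry was through luminal epithelium alone. That none of them changed sign therefore does not bear on stability either. Over all genes, 389 higher and 154 lower between luminal epithelium libraries became 640 and 279 with a pseudocount of 0.1 RPKM, 258 and 126 without small RNA and unnamed models, 204 and 62 at 5 RPKM and 330 and 245 without the 50 most abundant genes in the sum. In stroma 112 and 123 became 33 and 37 without small RNA and unnamed models. Between compartments 1574 and 973 in the controls became 606 and 291 at 5 RPKM and 1074 and 1628 with upper quartile scaling. In labelled knockout tissue 1730 and 890 became 728 and 235, and 1245 and 1474, in the same order, and 1300 and 1376 without the 50 most abundant genes in the sum. No paired analysis was possible because, between genotypes, each group holds 1 library and the labels carry no replicate numbers. Compartments could be paired by mouse, and this was not run because they stand in separate tables. Depth limits the luminal epithelium control, where members under about 0.1 RPKM cannot be seen, and every keratin ratio within stroma.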

Other observations

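Keratins of hair were also listed at low levels. In luminal epithelium Krt35 measured 0.196 RPKM (control) and 0.534 RPKM (labelled knockout), and it was listed at 0 in both stroma libraries. Krt85 was at 0.0823 and 0.0907 RPKM in luminal epithelium and at 0 and 0.241 RPKM in stroma, control and labelled knockout. Krt13, a keratin of stratified lining epithelia, was listed at 0 in both controls and at 0.155 and 0.103 RPKM in the luminal epithelium and stroma labelled knockout. These genes were chosen after their values were seen.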
